A study of Homo sapiens with 6 samples.

Results

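U87 is a human glioblastoma cell line, and its RNA was sequenced in 3 NC libraries, from cells that carried a Scramble shRNA, and in 3 shPRMT6 libraries, from cells in which PRMT6, an enzyme that methylates arginine on histones and other proteins, was knocked down. Both groups were the same line after lentiviral shRNA transfer and puromycin selection, the libraries of a group were independent replicates by the methods text, and neither the labels nor the methods name which PRMT6 shRNA was sequenced or any treatment with low oxygen. The account below covers 42 of the 60612 genes in the count table, chosen by name from pathway knowledge with earlier results of these data known. They are 2 glucose transporters, 15 core glycolytic enzymes, 3 PFKFB enzymes, 5 genes of pyruvate and lactate handling, 6 HIF factors and their controllers, and 11 hypoxia targets. All 42 passed the filter on low counts, which 18106 genes passed in all.

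Glycolysis converts glucose to pyruvate, and glioma cells release much of that pyruvate as lactate even when oxygen is present. HIF1A and EPAS1 are the oxygen-regulated subunits of the hypoxia-inducible factors. With oxygen, the EGLN enzymes hydroxylate them and VHL marks them for breakdown, so they are controlled mostly as proteins. Without oxygen they pair with ARNT, bind DNA at a short core sequence and raise transcription of glycolytic enzymes, glucose transporters and genes such as VEGFA and CA9.

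The libraries held 56388161 to 75887696 counts, and the TMM factors that correct for composition lay between 0.992 and 1.01. PRMT6 RNA stood at 9.33, 7.97 and 7.19 CPM (read counts set to a common library size with TMM) in NC and at 3.57, 4.58 and 5.24 CPM in shPRMT6, which is 54.7% of the NC mean (log2 fold change -0.87 ± 0.187 SE, edgeR adjusted p = 0.0225), and the call was lost without NC replicate 1, shPRMT6 replicate 1 or shPRMT6 replicate 2 (adjusted p up to 0.0713). Of the glial markers, VIM reached 7090 to 8430 CPM and NES 38.3 to 45.7 CPM, while S100B and AQP4 had no counts and GFAP stayed at 0.173 to 0.886 CPM. CDKN2A and CDKN2B, which lie in a region known to be lost in U87, were at or under 0.0628 CPM, and MTAP of the same region was at 0.393 to 0.434 CPM in NC and 0.162 to 0.393 CPM in shPRMT6 (log2 fold change -0.75, edgeR adjusted p = 0.338). The 5 myeloid markers were at or under 0.065 CPM, and CDH5 and CLDN5 of the 5 endothelial markers were at or under 0.0715 CPM. PECAM1, an endothelial marker at 2.55 to 5.23 CPM, was above NC in each shPRMT6 library without passing edgeR (adjusted p = 0.0544), and DESeq2 called it higher. VWF was at 0 to 0.393 CPM in NC and 0.354 to 0.738 CPM in shPRMT6 (log2 fold change 1.97, edgeR adjusted p = 0.297) and KDR at 5.31 to 14.8 CPM and 11.6 to 12.5 CPM (0.04, adjusted p = 0.953), so the 3 endothelial markers tested all had values above 0, with a median of 0.70. All 5 neuronal markers and 6 of the 8 glial markers passed the filter on low counts. Levels of the neuronal markers and of OLIG2, SOX2 and CD44 are not reported here. No neuronal or glial marker passed the test in either tool, also not at an unadjusted p under 0.05. Of the 3 epithelial markers, CDH1 was called lower at levels under 1 CPM in each library, a call lost in 5 of the 6 leave-one-out fits, each of which drops 1 library. The part of these markers in the results was not tested.

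Of the 42 genes, 14 fell and 2 rose in shPRMT6 at an adjusted p under 0.05, and 26 were not called. This is 38.1% called, against 18.6% of all 18106 genes tested. Because the 42 were chosen with earlier results of these data known, these counts are a description. Of all genes tested, 9.06% were called lower and 9.51% higher. The median log2 fold change of the 42 was -0.13, beside -0.01 over all genes tested, and 29 of the 42 had a value below 0. All 3 shPRMT6 libraries lay below all 3 NC libraries for 19 of the 42 genes and above them for 6, while the groups overlapped for 17. Among all genes tested, such separation was seen downward for 19.9% and upward for 20.3%. At the threshold of the study's methods, an absolute log2 fold change over 1 with an unadjusted p under 0.05, 2 of the 42 passed, CA9 and PFKFB3, against 5.92% of all genes tested. Without shPRMT6 replicate 2 or without shPRMT6 replicate 3, 9 of the 42 were called, 7 of them lower, while the genes called in all went from 3362 to 1755 and 1858. Without NC replicate 3 or shPRMT6 replicate 1, 11 of the 42 were called, 9 of them lower, with 1939 and 1871 genes called in all. In a culture, less RNA per cell and fewer cells that hold the RNA cannot be told apart.

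**Figure D1:**
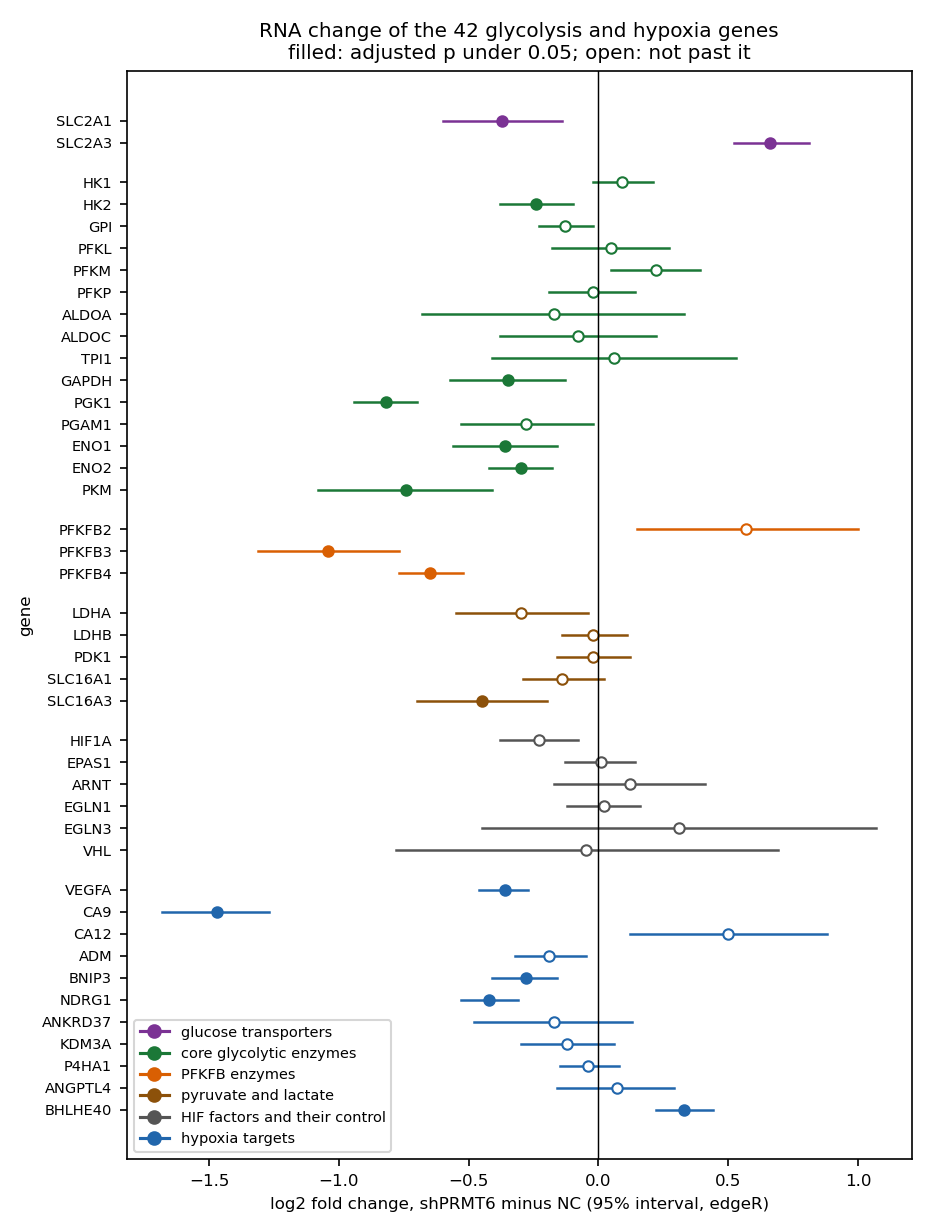
The horizontal axis gives the log2 fold change, shPRMT6 minus NC, of each of the 42 genes named on the vertical axis, with its 95% interval from edgeR and colours for 6 roles. Filled points passed an adjusted p of 0.05: 14 lie left of 0 and 2, SLC2A3 and BHLHE40, lie right of it, and no point of the HIF factors is filled.

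The sequences before the start sites of 5 genes are shown because these genes had the largest falls among those called in each of 15 alternative fits, or, for BHLHE40, rose and had a promoter in the RefSeq table used (36 of the 42 genes did). The core sequence bound by HIF was searched as ACGTG or GCGTG on both strands, which reads CACGT or CACGC on the opposite strand, in the 300 bases from 250 before to 50 after each start, and ACGTG is also part of the E-box CACGTG. Each line below gives the 250 bases before the RefSeq start on GRCh38.p14, 5′ to 3′ on the gene's strand, with those letters in capitals. CA9 lies on the plus strand with these bases at chr9:35673678-35673927, PFKFB3 on the plus strand at chr10:6144671-6144920, PGK1 on the plus strand at chrX:78103998-78104247, PFKFB4 on the minus strand at chr3:48556804-48557053, and BHLHE40 on the plus strand at chr3:4979187-4979436.
CA9: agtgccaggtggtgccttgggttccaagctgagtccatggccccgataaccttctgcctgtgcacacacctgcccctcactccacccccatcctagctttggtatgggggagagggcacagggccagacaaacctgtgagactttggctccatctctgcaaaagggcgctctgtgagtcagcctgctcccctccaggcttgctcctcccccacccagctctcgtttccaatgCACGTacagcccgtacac
PFKFB3: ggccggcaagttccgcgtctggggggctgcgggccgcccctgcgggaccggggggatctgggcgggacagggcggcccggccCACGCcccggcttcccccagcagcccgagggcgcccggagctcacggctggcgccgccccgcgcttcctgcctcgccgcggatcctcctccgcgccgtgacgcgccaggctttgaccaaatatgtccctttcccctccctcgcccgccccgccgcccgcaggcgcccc
PGK1: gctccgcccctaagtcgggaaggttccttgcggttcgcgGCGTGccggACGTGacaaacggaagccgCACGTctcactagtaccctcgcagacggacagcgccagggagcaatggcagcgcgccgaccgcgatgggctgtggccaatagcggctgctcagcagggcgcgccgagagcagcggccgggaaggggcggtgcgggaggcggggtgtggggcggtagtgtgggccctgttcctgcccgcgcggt
PFKFB4: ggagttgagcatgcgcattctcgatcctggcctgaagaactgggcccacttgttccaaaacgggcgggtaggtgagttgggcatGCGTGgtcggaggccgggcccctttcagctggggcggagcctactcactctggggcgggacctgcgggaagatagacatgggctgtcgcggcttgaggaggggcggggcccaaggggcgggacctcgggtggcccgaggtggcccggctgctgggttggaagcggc
BHLHE40: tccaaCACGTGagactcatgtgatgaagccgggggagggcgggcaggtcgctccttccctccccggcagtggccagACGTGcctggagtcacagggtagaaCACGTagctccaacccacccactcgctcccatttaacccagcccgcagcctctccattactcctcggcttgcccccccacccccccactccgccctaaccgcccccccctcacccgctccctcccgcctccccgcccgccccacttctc

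The stretch of CA9 held 1 match, which began 18 bases before the start. PFKFB3 and PFKFB4 each held 1 match, farther from the start at 168 and 166 bases. PGK1 held 3 matches, at 211, 202 and 183 bases, and BHLHE40 held 4, of which 2 are the same E-box read on both strands. Over the whole window, ACGTG or GCGTG was present in 11 of the 12 genes called lower that had a promoter in the table (91.7%), in 15 of the 23 not called (65.2%), in BHLHE40, and in 48.4% of the 27305 promoters of the table. CACGTG was present in 16.7% of the 36 promoters and in 7.43% of all. SLC16A3 was the gene called lower that had no match, while BNIP3 had 6 and GAPDH and ENO1 had 2 each. The 2 of GAPDH, at 81 and 80 bases, are the same E-box read on both strands, as are those of BNIP3 at 134 and 133 bases. PDK1, which was not called, had none, and LDHA had 6. Those of LDHA at 185 and 184 bases, and those at 87 and 86 bases, are also E-boxes read on both strands. Only 1 start per gene was searched, so matches near other starts of PDK1 or of any other gene were not counted. Base composition was not matched in these shares, and a match is a description of letters, not a binding site.

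The glucose transporters moved in opposite directions. SLC2A1, the widespread glucose carrier GLUT1, stood at 304, 351 and 391 CPM in NC and at 278, 268 and 262 CPM in shPRMT6. It fell to 77.3% of NC with groups that did not overlap (log2 fold change -0.37 ± 0.0953 SE, edgeR adjusted p = 0.0403). That call sat close to the threshold and held only without NC replicate 1 among the leave-one-out fits (adjusted p up to 0.122). SLC2A3, the high-affinity carrier GLUT3, stood at 168, 177 and 161 CPM in NC and at 270, 257 and 273 CPM in shPRMT6. It rose to 158% of NC (0.66 ± 0.0603 SE, edgeR adjusted p = 0.00148) and was called in each of the 15 alternatives. About 8.11% of its stretches of 75 bases also occur in SLC2A14, a near copy, so a part of its reads cannot be assigned.

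On the FPKM scale, which divides by length and allows genes to be set side by side, SLC2A3 made up 37.6%, 35.5% and 30.9% of the summed SLC2A1 and SLC2A3 level in NC and 51.5%, 51.0% and 53.2% in shPRMT6. The log2 ratio of the pair differed by 1.03 between the groups. An exact two-sided permutation test of 3 against 3 libraries gave p = 0.1, the smallest it can give, and 0.163 after adjustment over the 13 pairs of related genes compared.

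Among the core enzymes, 6 of 15 fell (40.0% called, against 18.6% of all genes tested) and none rose in edgeR or DESeq2. At an unadjusted p under 0.05, 8 were lower, GPI and PGAM1 beside the 6 that fell, and 1 was higher, PFKM. The share of all genes at that unadjusted threshold was not computed. The median log2 fold change was -0.17, and the falls of largest size lay in the later steps. PGK1, which makes ATP from 1,3-bisphosphoglycerate, lies on the X chromosome at chrX:77910739-78129296 in GENCODE 29 (GRCh38). It stood at 3630, 3320 and 3520 CPM in NC and at 2030, 1970 and 1930 CPM in shPRMT6. It fell to 56.7% of NC (log2 fold change -0.82 ± 0.0507 SE, edgeR adjusted p = 0.000504), and the groups were far apart against the spread of 159 CPM (SD, n = 3) in NC and 49.7 CPM in shPRMT6. PKM, the pyruvate kinase of the last step, stood at 2580, 3250 and 2220 CPM in NC and at 1640, 1680 and 1490 CPM in shPRMT6. It fell to 59.7% (-0.74 ± 0.139 SE, edgeR adjusted p = 0.014), NC replicate 2 lay above the other two, and without shPRMT6 replicate 3 the adjusted p was 0.0563.

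The other 4 enzymes that fell changed less. GAPDH, which oxidises glyceraldehyde-3-phosphate and is often used as a reference gene, stood at 10800, 11900 and 12400 CPM in NC and at 9940, 8050 and 9580 CPM in shPRMT6. It fell to 78.3% of NC (edgeR adjusted p = 0.0418), and that call held only without NC replicate 1 among the leave-one-out fits (adjusted p up to 0.123). ENO1, the widespread enolase, stood at 5370, 4800 and 5970 CPM in NC and at 4110, 4410 and 4070 CPM in shPRMT6, a fall to 78.0% (edgeR adjusted p = 0.0305) that was called only without NC replicate 2 among the leave-one-out fits (adjusted p up to 0.104). Both genes had groups that did not overlap, and in both the call turned on single libraries.

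ENO2, the enolase known from neurons and induced by HIF, stood at 465, 431 and 459 CPM in NC and at 370, 366 and 365 CPM in shPRMT6. It fell to 81.3% of NC (edgeR adjusted p = 0.0102, and 0.0523 without shPRMT6 replicate 2). HK2, the inducible hexokinase that traps glucose, stood at 610, 679 and 644 CPM in NC and at 532, 544 and 562 CPM in shPRMT6. It fell to 84.8% (edgeR adjusted p = 0.0334), a call lost without NC replicate 3 or without any 1 of the shPRMT6 libraries (adjusted p up to 0.12). HK1, the housekeeping hexokinase, was at 107% of NC and was not called, and HK2 took 60.5 to 62.5% of the summed hexokinase level on the FPKM scale in NC and 55.5 to 56.7% in shPRMT6.

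The remaining 9 core enzymes did not pass the test, with log2 fold changes from -0.28 for PGAM1 to 0.22 for PFKM. GPI, which isomerises glucose-6-phosphate, was below NC in each library at 91.7% of the mean (edgeR adjusted p = 0.104). The phosphofructokinases PFKL and PFKP overlapped between the groups at 103% and 98.4% of NC, while PFKM was above NC in each library at 117%. ALDOA, the main aldolase, spread from 1470 to 2620 CPM within NC alone, and TPI1 reached 1890 CPM in shPRMT6 replicate 3 against 1160 and 1140 CPM in the other shPRMT6 libraries. Those spreads leave wide 95% intervals, from -0.68 to 0.33 for ALDOA and from -0.41 to 0.53 for TPI1. Without NC replicate 2, ALDOA was called lower (log2 fold change -0.39, edgeR adjusted p = 0.0408), and without shPRMT6 replicate 3 the value of TPI1 turned to -0.22. Reads of ALDOA cannot all be assigned, since 42.3% of its exon bases are also annotated to AC093512.2, a gene on the same strand, and 28% of the stretches of 75 bases of PGAM1 occur in other genes.

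**Figure D2:**
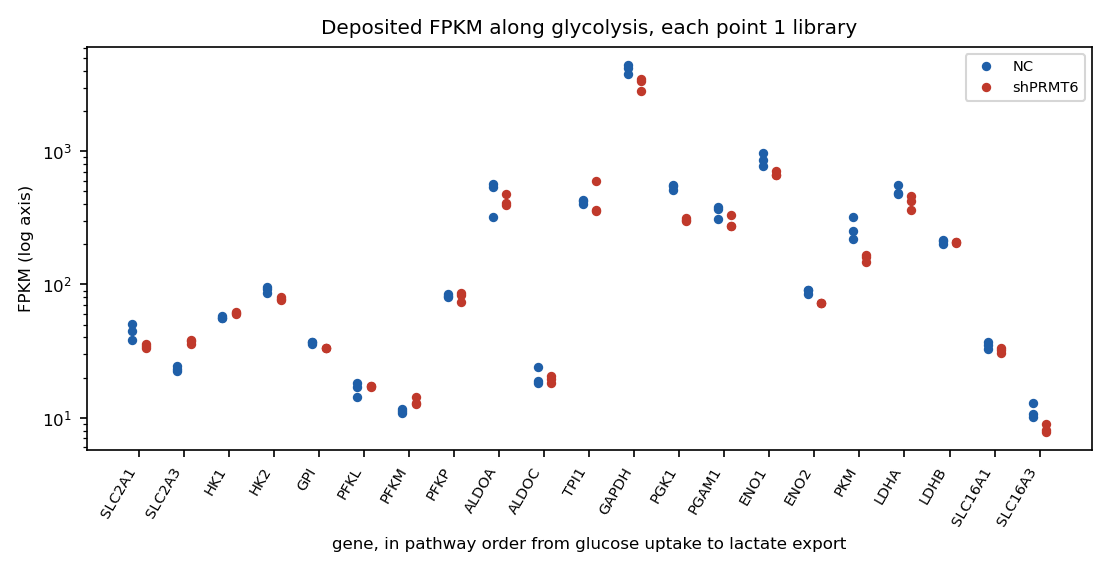
Each point is the deposited FPKM of 1 library, on a log axis, for 21 genes in pathway order from glucose uptake to lactate export, NC in blue and shPRMT6 in red. GAPDH is the gene with the highest level, PGK1 and PKM are the enzymes whose groups lie farthest apart, and SLC2A3, PFKM and HK1 have each shPRMT6 library above each NC library, with SLC2A3 the gene of the 3 whose groups lie farthest apart.

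Summed over the 15 core enzymes, the level was 7199, 7231 and 7918 FPKM in NC and 6199, 5450 and 6138 FPKM in shPRMT6, which is 79.6% of NC. GAPDH dominated that sum, and without it the level was 80.7% of NC. The 6 enzymes from GAPDH to pyruvate summed to 76.3% of NC, and the 9 enzymes before them to 96.5%. In the first sum the groups did not overlap, with 5895 to 6627 FPKM in NC and 4373 to 5057 FPKM in shPRMT6, and in the second they overlapped, with 1038 to 1304 FPKM and 1077 to 1289 FPKM. A few genes weigh most in both sums. GAPDH had an NC mean of 4130 FPKM within the 6239 FPKM of the later enzymes. ALDOA and TPI1 had 477 and 419 FPKM within the 1211 FPKM of the earlier ones. ALDOA stood at 322 FPKM in NC replicate 2, beside 570 and 540 FPKM in the other NC libraries. TPI1 stood at 594 FPKM in shPRMT6 replicate 3, beside 365 and 357 FPKM in the other shPRMT6 libraries. These sums are descriptions and carry no test.

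PFKFB enzymes make or remove fructose-2,6-bisphosphate, the strongest activator of phosphofructokinase. PFKFB3, the form that favours its synthesis, lies at chr10:6144934-6254644 and stood at 63.5, 78.1 and 76.9 CPM in NC and at 38.1, 31.9 and 36.3 CPM in shPRMT6. It fell to 48.7% of NC (log2 fold change -1.04 ± 0.112 SE, edgeR adjusted p = 0.00224). PFKFB4 lies at chr3:48517684-48562015 and stood at 272, 257 and 265 CPM in NC and at 173, 167 and 167 CPM in shPRMT6, a fall to 63.9% (-0.65 ± 0.0514 SE, edgeR adjusted p = 0.00103). Both were called in each of the 15 alternatives, and in both the shPRMT6 libraries lay well below the NC libraries.

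PFKFB2, a form of the same enzyme that is known from heart, was the least abundant of the 3 at 3.92, 6.01 and 5.21 CPM in NC and 7.16, 7.88 and 7.51 CPM in shPRMT6. Its groups did not overlap, but the difference did not pass edgeR (adjusted p = 0.0713) and was called by DESeq2 and without NC replicate 2. On the FPKM scale PFKFB4 was the more abundant of PFKFB4 and PFKFB3, with 76.7 to 81.1% of their sum in NC and 82.0 to 84.0% in shPRMT6. The exact permutation p for the log2 ratio of PFKFB2 to PFKFB3, which differed by 1.64, and of PFKFB4 to PFKFB3, which differed by 0.39, was 0.1 for each (adjusted 0.163).

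Of the 5 genes that handle pyruvate and lactate, SLC16A3 fell and the others were not called. SLC16A3, the lactate exporter MCT4, stood at 115, 108 and 137 CPM in NC and at 86.5, 83.0 and 94.4 CPM in shPRMT6, a fall to 73.2% (edgeR adjusted p = 0.0304) that held only without NC replicate 2 among the leave-one-out fits (adjusted p up to 0.106). SLC16A1, the lactate carrier MCT1, was at 91.0% of NC with groups that overlapped. LDHA, which turns pyruvate into lactate, stood at 4010, 3490 and 3380 CPM in NC and at 3290, 3000 and 2580 CPM in shPRMT6, so each shPRMT6 library was below each NC library, at 81.5% of the mean, without passing the test (log2 fold change -0.30, 95% interval -0.55 to -0.04, edgeR adjusted p = 0.104). LDHB, the subunit that favours the reverse reaction, was at 99.0% of NC and overlapped, and 33.4% of its exon bases are also annotated to AC010197.2.

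LDHB made up 27.6 to 30.8% of the summed LDHA and LDHB level on the FPKM scale in NC and 31.2 to 36.2% in shPRMT6 (exact permutation p = 0.1, adjusted 0.163). PDK1, which shuts pyruvate dehydrogenase and is a well-known HIF target, stood at 91.2, 93.8 and 88.7 CPM in NC and at 86.0, 92.5 and 91.2 CPM in shPRMT6. Its groups overlapped and its 95% interval ran from -0.16 to 0.12 on the log2 scale, so falls of the size seen for PGK1 or PFKFB4 lie outside it.

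**Figure D3:**
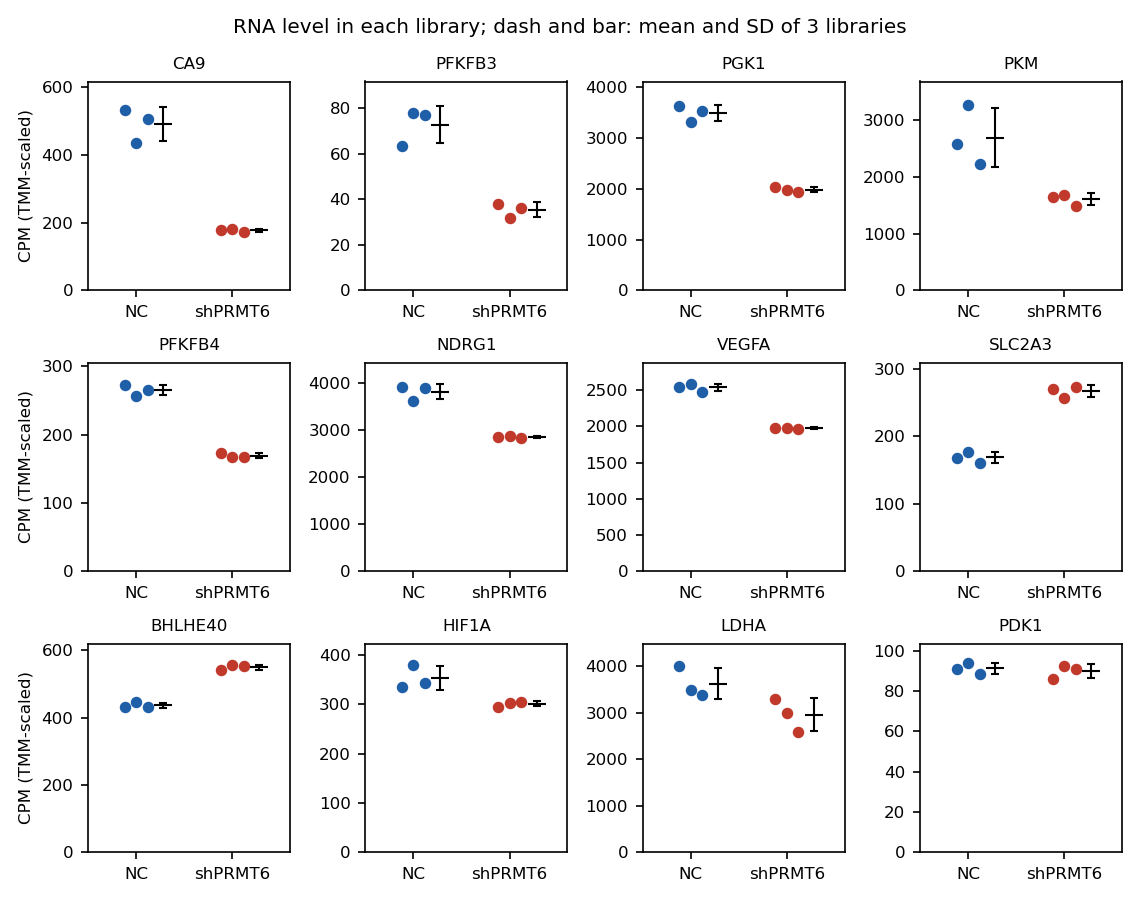
Each panel gives the TMM-scaled CPM of 1 gene in the 3 NC libraries (blue) and the 3 shPRMT6 libraries (red), with a dash and bar for the mean and SD of each group, on an axis that starts at 0. CA9, PFKFB3, PGK1, PKM, PFKFB4, NDRG1 and VEGFA sit lower in each shPRMT6 library, SLC2A3 and BHLHE40 sit higher, and the points of PDK1 overlap.

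None of the 6 HIF factors and controllers passed the test in edgeR or in DESeq2, beside 18.6% of all genes tested that passed edgeR. Of the 6, 1, HIF1A, had an unadjusted p under 0.05. HIF1A stood at 335, 380 and 342 CPM in NC and at 295, 303 and 305 CPM in shPRMT6. Each shPRMT6 library was below each NC library, at 85.3% of the mean, and the value fell just outside the threshold (log2 fold change -0.23, 95% interval -0.38 to -0.08, edgeR adjusted p = 0.0514), so that 4 of the 15 alternatives called it (adjusted p from 0.0416 to 0.16). EPAS1, which encodes HIF-2 alpha, stood at 288, 308 and 283 CPM in NC and at 287, 299 and 296 CPM in shPRMT6 and overlapped, with a 95% interval of -0.13 to 0.14. On the FPKM scale EPAS1 made up 37.8%, 36.4% and 36.9% of the summed HIF1A and EPAS1 level in NC and 40.7%, 41.1% and 40.7% in shPRMT6 (exact permutation p = 0.1, adjusted 0.163).

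ARNT, the partner of both, stood at 67.0, 54.6 and 64.2 CPM in NC and at 57.7, 72.3 and 71.7 CPM in shPRMT6 and overlapped. EGLN1, the main oxygen-sensing hydroxylase, stood at 121, 129 and 124 CPM in NC and at 126, 122 and 131 CPM in shPRMT6, with a 95% interval of -0.12 to 0.16. EGLN3, usually a strongly induced HIF target, was scarce at 0.529 to 1.01 CPM over the 6 libraries. VHL stood at 28.8, 33.3 and 28.6 CPM in NC and at 20.3, 45.4 and 22.1 CPM in shPRMT6, where replicate 2 was high and the other two were low. Its 95% interval ran from -0.78 to 0.69 and so holds sizeable changes of either sign.

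CA9 showed the largest change of the 42 genes. It encodes a carbonic anhydrase at the cell surface that helps to export acid and is widely used as a marker of HIF activity, and it lies at chr9:35673856-35681159. CA9 stood at 532, 434 and 506 CPM in NC and at 177, 182 and 171 CPM in shPRMT6. It fell to 36.0% of NC (log2 fold change -1.47 ± 0.0856 SE, edgeR adjusted p = 0.000407), and leaving out 1 library moved the value only between -1.55 and -1.41. On the opposite strand, exons of ARHGEF39 overlap 38.5% of the exon bases of CA9, and the strand setting of the counting is not given in the sources used here. ARHGEF39 stood at 25.2 to 26.3 CPM in NC and 8.92 to 14.0 CPM in shPRMT6 and was also called lower (-1.13, edgeR adjusted p = 0.00674), so the reads of the shared bases cannot be told apart, while the level of CA9 was much the higher.

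CA12, a related carbonic anhydrase, stood at 482, 367 and 473 CPM in NC and at 757, 553 and 562 CPM in shPRMT6. It was above NC in each library, at 142% of the mean, without passing edgeR (adjusted p = 0.0737), and DESeq2 called it higher (adjusted p = 0.0128). On the FPKM scale CA12 made up 16.3 to 17.7% of the summed CA9 and CA12 level in NC and 41.1 to 49.5% in shPRMT6. The log2 ratio of the pair differed by 1.96, the widest of the 13 pairs (exact permutation p = 0.1, adjusted 0.163).

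VEGFA, the main signal for vessel growth, stood at 2550, 2580 and 2480 CPM in NC and at 1980, 1980 and 1960 CPM in shPRMT6. It fell to 77.8% of NC (log2 fold change -0.36 ± 0.0403 SE, edgeR adjusted p = 0.00246) with little spread within either group. NDRG1, a stress-response gene, stood at 3910, 3620 and 3890 CPM in NC and at 2840, 2870 and 2830 CPM in shPRMT6, a fall to 74.8% (-0.42 ± 0.0466 SE, edgeR adjusted p = 0.00246). BNIP3, which acts in mitophagy, stood at 1110, 1020 and 1030 CPM in NC and at 889, 863 and 846 CPM in shPRMT6, a fall to 82.3% (edgeR adjusted p = 0.0141) that was lost without shPRMT6 replicate 2 or 3 (adjusted p up to 0.0662). VEGFA and NDRG1 were called in each of the 15 alternatives.

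BHLHE40, a transcriptional repressor that HIF can induce, lies at chr3:4979116-4985323 and stood at 431, 446 and 433 CPM in NC and at 542, 556 and 553 CPM in shPRMT6. It rose to 126% of NC (log2 fold change 0.33 ± 0.0455 SE, edgeR adjusted p = 0.005), opposite to the other 4 hypoxia targets that were called. The remaining targets, ADM, ANKRD37, KDM3A, P4HA1 and ANGPTL4, were not called, with log2 fold changes from -0.19 for ADM to 0.07 for ANGPTL4. P4HA1, a collagen hydroxylase, had the narrowest 95% interval of these, -0.15 to 0.08.

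**Figure D4:**
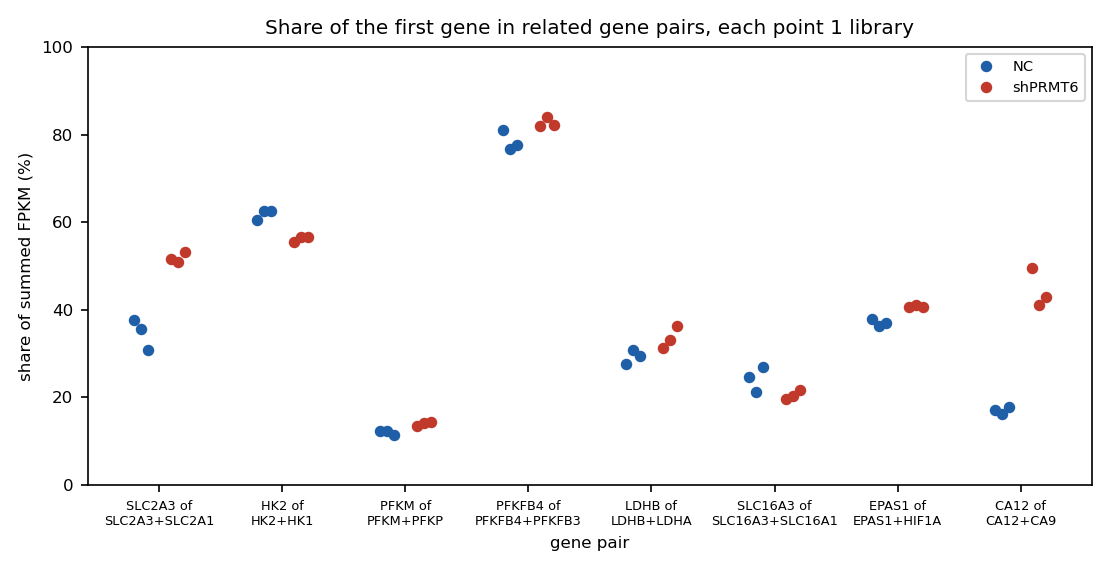
The vertical axis gives, in percent of summed FPKM, the share of the first gene of 8 related pairs in each NC library (blue) and shPRMT6 library (red). SLC2A3 moves from 30.9 to 37.6% in NC to 51.0 to 53.2% in shPRMT6 and CA12 from 16.3 to 17.7% to 41.1 to 49.5%, while the shares of SLC16A3 overlap.

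In all, 8 of the 13 related pairs had log2 ratios that did not overlap between the groups. The share over all possible gene pairs was not computed. Among single genes tested, 19.9% lay lower without overlap and 20.3% higher. PFKL and PFKM share the partner PFKP, and PFKFB4 and PFKFB2 share PFKFB3, so the pairs are not independent. The pairs that overlapped were PFKL with PFKP, ALDOC with ALDOA, ENO2 with ENO1, SLC16A3 with SLC16A1, and EGLN3 with EGLN1. For ENO2 and ENO1 the ratio differed by 0.05, as both genes fell by a like amount. With 3 libraries a group the exact permutation test cannot give less than p = 0.1, so no pair could pass the threshold.

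The hypoxia targets beyond the 11 described above were read from a further list of 40 genes, of which 36 were tested. Of these, 8 fell and 3 rose (30.6% called, against 18.6% of all genes tested), with a median of -0.07. STC2, a secreted glycoprotein, fell from 411 to 431 CPM in NC to 192 to 196 CPM in shPRMT6 (log2 fold change -1.11 ± 0.0486 SE, edgeR adjusted p = 0.000211). ZNF395 fell from 311 to 320 CPM to 184 to 191 CPM (-0.75 ± 0.0484 SE, edgeR adjusted p = 0.000519). HMOX1, the haem oxygenase that NRF2 and HIF both induce, rose from 39.7 to 50.5 CPM to 97.3 to 102 CPM (1.14 ± 0.0973 SE, edgeR adjusted p = 0.00119). These 3 were called in each alternative fit, and 34.9% of the exon bases of ZNF395 are also annotated to FBXO16 on the same strand. With both lists together, 12 of 47 tested hypoxia targets fell and 4 rose (34.0% called, against 18.6% of all genes tested).

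Of a further list of 16 genes linked to HIF, mostly regulators, 3 fell and none rose. This is 18.8% called against 18.6% of all genes tested and so near that background, with a median of -0.22 beside -0.01. DESeq2 called 4 lower and none higher, and at an unadjusted p under 0.05 in edgeR 5 were lower and 1 was higher. MXI1, an antagonist of MYC, fell from 141 to 154 CPM in NC to 98.0 to 101 CPM in shPRMT6 (log2 fold change -0.58 ± 0.0589 SE, edgeR adjusted p = 0.00194). HSP90AB1 and HSP90AA1, chaperones that hold HIF1A among many clients, fell by 0.35 and 0.31 on the log2 scale (edgeR adjusted p = 0.0036 and 0.041), and the second call was lost in 4 of the 6 leave-one-out fits, those without NC replicate 1 or without any 1 of the shPRMT6 libraries (adjusted p up to 0.128). HIF3A at 3.62 to 6.26 CPM, ARNT2 at 5.72 to 7.97 CPM, EGLN2 at 35.3 to 81.6 CPM and HIF1AN at 62.2 to 76.3 CPM overlapped between the groups and were not called.

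Of the 29 other glycolysis genes, 18 were tested, 2 rose and 3 fell (27.8% called, against 18.6% of all genes tested). BPGM, which makes 2,3-bisphosphoglycerate from the substrate of PGK1, rose from 24.6 to 25.5 CPM in NC to 43.5 to 43.9 CPM in shPRMT6 (log2 fold change 0.81 ± 0.0664 SE, edgeR adjusted p = 0.00114). HKDC1, a further hexokinase, rose from 12 to 12.8 CPM to 20.5 to 23.1 CPM (0.82 ± 0.0895 SE, edgeR adjusted p = 0.00236). BSG, the chaperone of the lactate carriers, fell by 0.57 (edgeR adjusted p = 0.0219), a call lost without NC replicate 1, NC replicate 3 or shPRMT6 replicate 3 (adjusted p up to 0.0745). SLC2A8, a glucose carrier at 1.23 to 4.63 CPM, fell by 1.30 (edgeR adjusted p = 0.0223). That call held only without NC replicate 2 among the leave-one-out fits.

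A further list covered pyruvate entry into the mitochondria, genes that control this entry such as the PDK kinases, and the citric acid cycle. It had a median log2 fold change of 0.25. Of the 28, 6 rose and 2 fell (28.6% called, against 18.6% of all genes tested). FH fell by 0.32 (edgeR adjusted p = 0.0267). PDK3, a kinase that like PDK1 shuts pyruvate dehydrogenase, fell by 0.45 (edgeR adjusted p = 0.0385). Each of these calls was lost in 5 of the 6 leave-one-out fits. PC, the pyruvate carboxylase, rose from 22.6 to 27.0 CPM in NC to 54.9 to 55.4 CPM in shPRMT6 (1.15 ± 0.0853 SE, edgeR adjusted p = 0.000799). OGDH, of the oxoglutarate dehydrogenase complex, rose from 115 to 124 CPM to 187 to 197 CPM (0.67 ± 0.0578 SE, edgeR adjusted p = 0.00119). Both were called in each alternative fit. DLD rose by 0.28 (edgeR adjusted p = 0.0217), a call lost without NC replicate 3 or without any 1 of the shPRMT6 libraries (adjusted p up to 0.0856).

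Of the 9 glycogen genes, 3 rose (33.3% called, against 18.6% of all genes tested) and none fell in edgeR or DESeq2. At an unadjusted p under 0.05, the same 3 were higher and none was lower. PPP1R3B, a glycogen-targeting subunit of a phosphatase, rose by 0.77 and the glycogen phosphorylase PYGB by 0.56 (edgeR adjusted p = 0.0024 and 0.00363), both in each alternative fit, and PYGL rose by 0.24 (adjusted p = 0.0207), a call lost without NC replicate 3 or without any 1 of the shPRMT6 libraries. Of the 7 tested genes of the pentose phosphate pathway only PGD was called (14.3%, against 18.6% of all genes tested). PGD was 0.36 higher on the log2 scale (edgeR adjusted p = 0.0377). That call was lost in each of the 6 leave-one-out fits (adjusted p of 0.0573 to 0.101).

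**Figure D5:**
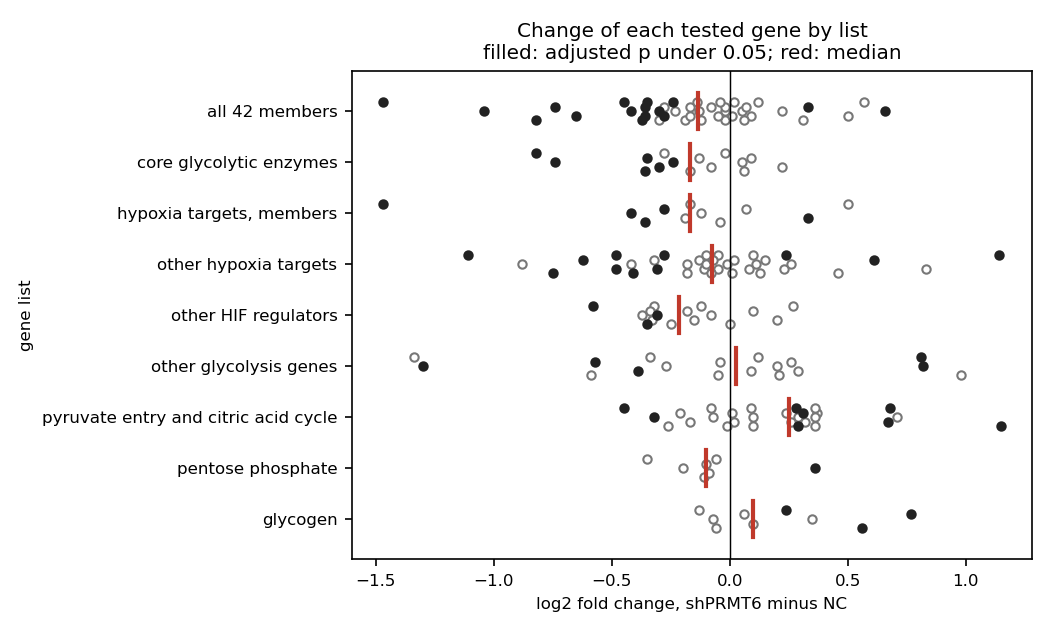
Each point is 1 tested gene, placed on the horizontal axis by its log2 fold change, shPRMT6 minus NC, with the gene lists on the vertical axis, filled points past an adjusted p of 0.05 and a red line at the list's median. The medians lie at -0.17 for the core glycolytic enzymes, at -0.22 for the list labelled other HIF regulators and at 0.25 for pyruvate entry and the citric acid cycle.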

How the data were processed

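The 6 libraries, 3 NC and 3 shPRMT6, held RNA of U87 cells and were prepared with the NEBNext Ultra RNA kit (RNA extraction is given as Trizol in the labels and as an RNeasy kit in the methods text). The submitters' processing notes list HISAT2, HTSeq 0.13.5 and GRCh38, and the strand setting of counting is not given in the sources used here. The authors deposited whole-number read counts per gene, not normalized, and FPKM values, which the authors scaled by gene length and library total and which stand at 0.0001 for a gene with no read. Groups came from the sample titles.

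The main test was edgeR 4.0.16 (R 4.3.3) on the counts of all 6 libraries, with TMM factors, filterByExpr, the quasi-likelihood F test and Benjamini-Hochberg adjustment over the 18106 genes tested. Fold changes are shPRMT6 minus NC, and errors of fold changes are SE, those of levels SD. Alternatives were DESeq2 1.42.0, limma 3.58.1 on log2(FPKM + 1) or log2(FPKM + 0.1), other scaling factors, filters and thresholds, a replicate block, and leaving out each library. For single genes 15 of these alternatives gave a fit. Ratios of 13 related gene pairs were compared by exact permutation (SciPy 1.17.1). Scripts were tested on simulated data.

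The 42 members and all further lists were chosen with earlier results of these data known. Every member was accounted for. Values per library were given for each member past an adjusted p of 0.05 and for SLC2A1, HK2, PFKFB3, PGK1, LDHA, PDK1, HIF1A, EPAS1, ARNT, EGLN1, VHL, VEGFA and CA9, and of each further list up to 4 called genes with the smallest p were named, with HIF3A, ARNT2, EGLN2 and HIF1AN. Some genes that this rule names are not reported here. PFKFB2, CA12, ALDOA, TPI1, FH and PDK3 were described after their values were seen. Coordinates and exon overlaps came from GENCODE 29, and promoter sequences from RefSeq. Total counts were 56388161 to 75887696 per library, and the precision also depends on the spread between the 3 libraries of a group.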

Additional observations from a re-analysis of the deposited data

How the results depend on the processing

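No call of the 16 genes reversed in any of the 15 alternative fits, and 8 of the 16 (SLC2A3, PGK1, PFKFB3, PFKFB4, VEGFA, CA9, NDRG1 and BHLHE40) were called in each of them. The replicate numbers did not pair the libraries, since deviations of same-numbered libraries correlated at -0.026, -0.0117 and -0.0322 and no library correlated best with its own number. With the replicate block, 1858 genes were called, 950 higher and 908 lower, and of the 42 genes 13, which dropped ENO1, GAPDH, HK2 and SLC2A1 and added LDHA. DESeq2 called 4 of the 42 higher, adding CA12 and PFKFB2, with 4026 genes called in all (2105 higher), and limma on log2(FPKM + 1) without a filter called 9 of the 42 lower, with 2554 in all (1202 lower). At an adjusted p under 0.01, 1320 genes passed (673 higher, 647 lower), with 8 of the 42, of which 6 were lower. At an absolute log2 fold change over 1 with an unadjusted p under 0.05, 1072 passed (596 higher, 476 lower), with 2 of the 42, 0 higher and 2 lower.

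Leaving out 1 library gave 1755 to 3183 genes called, 898 to 1661 higher and 857 to 1522 lower, and 9 to 16 of the 42 called, 7 to 13 lower. The lowest counts came without shPRMT6 replicate 2 or 3, and the fits with 5 libraries have fewer degrees of freedom. Genes not called changed sign when 1 library was left out: log2 fold changes ran from -0.048 to 0.117 for PFKL, -0.0694 to 0.0407 for PFKP, -0.16 to 0.06 for ALDOC, -0.218 to 0.186 for TPI1, -0.055 to 0.00954 for LDHB, -0.0419 to 0.01 for PDK1, -0.0197 to 0.0416 for EPAS1, -0.0067 to 0.0433 for EGLN1 and -0.511 to 0.16 for VHL. EPAS1 was also at -0.00185 with upper quartile factors. So did the log2 ratios of PFKL to PFKP (-0.00242 to 0.139), ALDOC to ALDOA (-0.124 to 0.272) and ENO2 to ENO1 (-0.0113 to 0.101). The cause of these shifts was not tested. With 3 libraries a group and 1 cell line, the spread covers these cultures only.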
